A study of Mus musculus with 20 samples.

Results

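The 10 genes described here mark the pro-B and pre-B stages of B lymphocyte development in bone marrow: Vpreb1, Vpreb3, Igll1, Rag1, Rag2, Dntt, Il7r, Cd24a, Ebf1 and Pax5. They were taken by symbol from knowledge of B cell development, with earlier results of these data known. Each was mapped to the Ensembl identifier of its protein-coding gene, giving 10 of the 37620 genes in the count table. RNA was sequenced from unfractionated bone marrow of 20 mice, in 4 groups of 5 (vehicle or sudemycin D6, in mice carrying U2AF1(WT) or U2AF1(S34F)). U2AF1 is a splicing factor that binds the AG dinucleotide of 3′ splice sites, S34F is an amino acid change recurrent in myelodysplastic syndromes, and sudemycin D6 is a small molecule that targets the splicing factor SF3B1. The question was what the drug did to marrow that expressed the mutant protein compared with marrow that expressed the wild-type protein.

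All mice were lethally irradiated wild-type recipients, 6 to 12 weeks old, from a cross of C57BL/6 and 129S4Sv/Jae mice. Each received pooled marrow of 2 to 3 transgenic donors, 8 to 12 weeks old, and at least 6 weeks were left for engraftment. Every donor carried rtTA, the doxycycline-responsive activator, with either a U2AF1(WT) or a U2AF1(S34F) transgene, and every recipient ate doxycycline chow at 625 ppm for 7 days. On the last 5 of those days the mice received intravenous infusions of 4 h, of either sudemycin D6 at 50 mg per kg per day or the cyclodextrin vehicle, and marrow RNA was collected 18 h later. Cells of the recipient, such as stroma, carried no transgene. Donor marrow was pooled by genotype, so p-values measured the spread between recipients rather than between independent donors. Genotype and donor pool therefore cannot be told apart in any comparison between genotypes.

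B cell development starts from lymphoid progenitors that turn on Ebf1 and Pax5, the transcription factors that specify the lineage and commit cells to it. Pro-B cells, which depend on interleukin-7 for survival and growth, cut and join the immunoglobulin heavy chain gene with the Rag1 and Rag2 recombinase while Dntt adds untemplated nucleotides at the joints. A successfully made heavy chain pairs with the surrogate light chain of Vpreb and Igll1 to form the pre-B cell receptor, and the surrogate light chain is switched off again as the cells go on to small pre-B and immature B cells.

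Promoter sequences of 4 members are shown because each holds a motif of a factor known from B cells within the 250 bases before the transcription start. They are from RefSeq (GRCm38.p6), written 5′ to 3′ on the strand of the gene, at chr16:16869256-16869505 for Vpreb1, chr10:75948050-75948299 for Vpreb3, chr16:16863986-16864235 for Igll1 and chr2:101649533-101649782 for Rag1. Capitals mark the match: the E-box CAGGTG, bound by E proteins such as Tcf3, in Vpreb1 and Rag1, its complement CACCTG in Igll1, and the octamer ATTTGCAT, bound by POU factors, in Vpreb3.
Vpreb1: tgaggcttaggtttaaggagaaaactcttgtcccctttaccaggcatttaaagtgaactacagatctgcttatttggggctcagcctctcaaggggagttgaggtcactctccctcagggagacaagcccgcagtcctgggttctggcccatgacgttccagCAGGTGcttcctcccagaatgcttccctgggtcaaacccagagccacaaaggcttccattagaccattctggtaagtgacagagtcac
Igll1: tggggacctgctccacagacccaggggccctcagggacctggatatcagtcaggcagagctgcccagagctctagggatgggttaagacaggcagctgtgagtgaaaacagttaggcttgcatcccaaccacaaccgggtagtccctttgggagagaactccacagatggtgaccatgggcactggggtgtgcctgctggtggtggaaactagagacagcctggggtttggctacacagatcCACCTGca
Rag1: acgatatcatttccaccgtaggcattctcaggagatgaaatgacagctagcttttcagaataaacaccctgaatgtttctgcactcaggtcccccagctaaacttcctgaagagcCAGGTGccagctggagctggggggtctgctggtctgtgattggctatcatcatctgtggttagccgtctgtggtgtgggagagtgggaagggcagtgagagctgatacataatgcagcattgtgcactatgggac
Vpreb3: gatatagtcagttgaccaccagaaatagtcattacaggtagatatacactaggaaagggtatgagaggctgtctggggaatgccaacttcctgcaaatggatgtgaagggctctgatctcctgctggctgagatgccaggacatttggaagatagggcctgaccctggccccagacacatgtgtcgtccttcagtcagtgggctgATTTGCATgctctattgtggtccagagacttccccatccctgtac
Counted back from the start, the matches lay at bases 88 to 83 in Vpreb1, 8 to 3 in Igll1, 135 to 130 in Rag1 and 45 to 38 in Vpreb3. Both strands of 32851 promoters of this length were searched, and the E-box was in 17.2% of them and the octamer in 1.60%. A palindrome of the early B cell factor family, TCCC and GGGA with 2 bases between them, was in 0.779% of all promoters and in 0 of the 10 entries found for 9 members (Ebf1 has 2 starts). These are matches of letters, and binding was not measured.

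The mice had 41145892 to 62138138 gene counts each (median 51836276), and levels are given as counts scaled to library size with TMM (CPM). U2af1 was at 36.1 ± 1.38 CPM in vehicle-treated U2AF1(WT) mice (SD, n = 5) and at 51.0 ± 3.32 CPM in vehicle-treated U2AF1(S34F) mice (SD, n = 5), and the count table does not separate transgene from endogenous reads. The genotypes differed in the sex-linked genes: counts of Ddx3y were 0 throughout the U2AF1(WT) groups and 2131 to 4512 in those with U2AF1(S34F), and counts of Xist were 39145 to 78640 against 1 to 8. Genotype and this sex-linked difference therefore cannot be told apart in any comparison between genotypes, whereas each drug comparison lay within one pattern of these genes. Values of single mice are given in the order of their numbers, which were 1, 2, 3, 4 and 5 in the vehicle-treated and 6, 8, 9, 10 and 12 in the sudemycin-treated U2AF1(WT) group, and 1, 3, 5, 7 and 11 and 2, 6, 9, 10 and 12 in the corresponding U2AF1(S34F) groups. Mouse 2 of the vehicle-treated U2AF1(WT) group and mouse 10 of the sudemycin-treated U2AF1(WT) group stood apart from their groups, the first in Vpreb1, Vpreb3, Ebf1 and Pax5 and the second in Rag1, and counts of calls without them are given beside the results.

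Every member except Cd24a was scarce in whole marrow. Per kilobase of exon, in vehicle-treated U2AF1(WT) mice, Cd24a was at 386 ± 28.9 CPM per kb (SD, n = 5) and Dntt, next in order, at 4.13 ± 0.933 CPM per kb. Pax5 (2.41 ± 0.882), Vpreb3 (2.03 ± 0.369), Il7r (1.78 ± 0.476), Ebf1 (1.34 ± 0.507), Igll1 (1.19 ± 0.326) and Vpreb1 (1.18 ± 0.555) followed, and Rag1 (0.523 ± 0.162) and Rag2 (0.160 ± 0.0856) were lowest. The ranges of the 5 mice did not overlap between Cd24a and Dntt, between Dntt and Pax5 and between Rag1 and Rag2, and all other neighbours in this order overlapped. Cd24a encodes a surface sialoglycoprotein that neutrophil precursors and erythroid cells also carry, so its level in whole marrow is not a measure of early B cells. Raw counts per mouse ran from 0 to 43 for Rag2, 2 to 101 for Vpreb1, 10 to 124 for Vpreb3, 3 to 242 for Igll1 and 0 to 350 for Rag1, which limits the precision of these 5 genes.

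**Figure D1:**
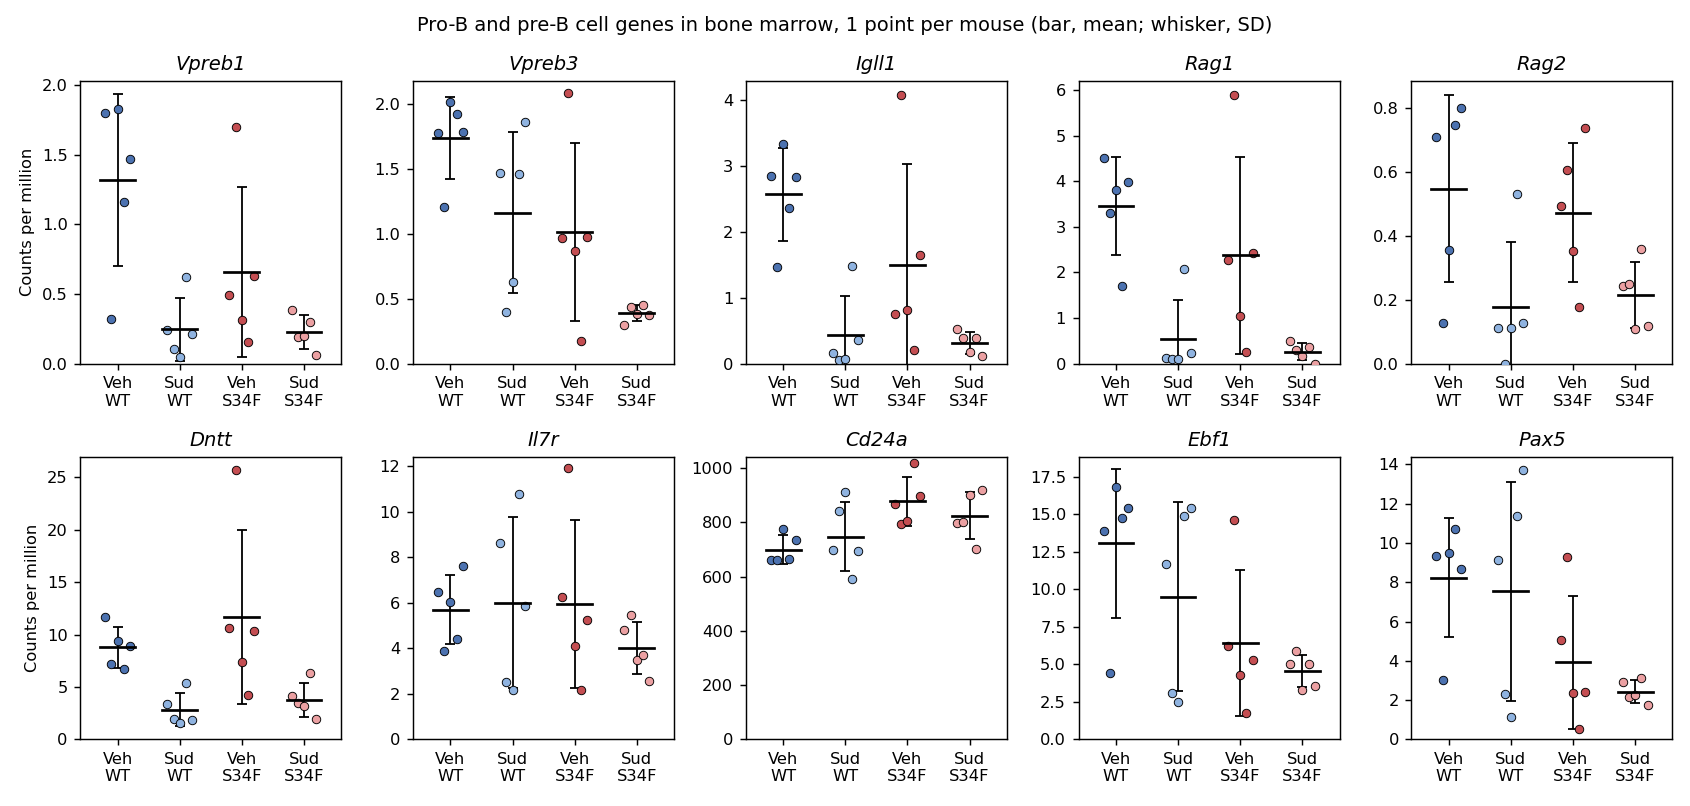
Level of each member in each of the 20 mice, 1 panel per gene, in CPM on a linear axis with its own scale. Points are mice, grouped by genotype and treatment (n = 5 each), horizontal bars are group means and whiskers are ± 1 SD, cut at 0 where they would fall below it. Dntt in the sudemycin-treated U2AF1(WT) mice (1.55 to 5.35 CPM) lay below every vehicle-treated U2AF1(WT) mouse (6.70 to 11.7 CPM).

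Sudemycin D6 lowered the genes of the V(D)J recombinase, terminal transferase and the surrogate light chain, whereas Ebf1, Pax5, Il7r and Cd24a did not pass the test. With both genotypes in one model (edgeR quasi-likelihood, Benjamini-Hochberg over 15069 genes, FDR<10%), 6 of 10 members were lower after the drug and 0 were higher. From counts of splice junctions alone, 7 members had enough reads and 2 of them, Dntt and Igll1, were called lower. Among all genes tested, 7.31% were called lower and 7.92% higher, 15.2% in either direction. The median log2 fold change was −1.06 over the members and 0.01 over all genes. The members were chosen with earlier results of these data known, so this contrast is a description. In bulk RNA, fewer cells of a type and less RNA per cell cannot be told apart, and this holds for each difference given here.

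**Figure D2:**
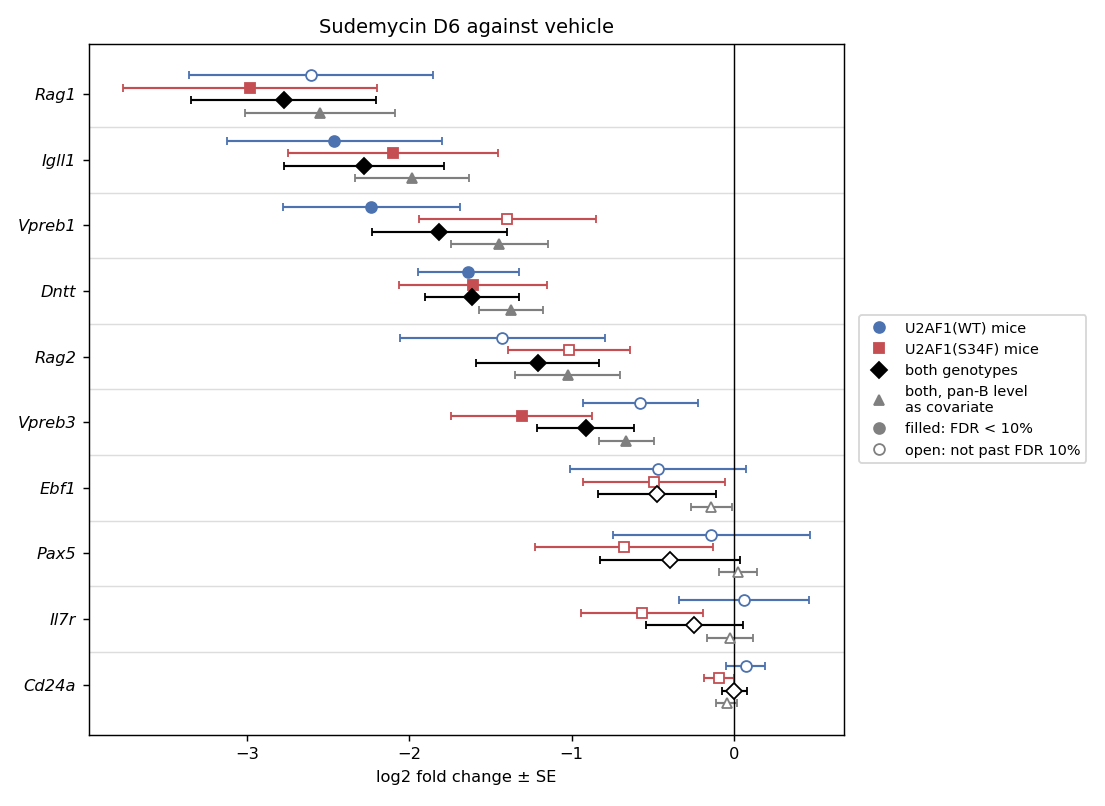
Log2 fold change of each member with sudemycin D6 against vehicle, in U2AF1(WT) mice, in U2AF1(S34F) mice and over both genotypes. A further series over both genotypes has the summed level of Cd79a and Cd79b as a covariate, a fit chosen after seeing the data. Bars through the points are ± 1 SE of the edgeR fit and filled points passed FDR<10%. Rag1 sits lowest in all 3 fits without the covariate (−2.60, −2.98 and −2.78), and Cd24a sits near 0.

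Rag1 (ENSMUSG00000061311, mm9 chr2:101478439-101489658, minus strand) encodes the catalytic subunit of the recombinase and had the largest fold difference of the members. Rag1 was at 4.51, 3.29, 3.80, 1.70 and 3.98 CPM in the vehicle-treated and at 0.132, 0.105, 0.112, 2.07 and 0.236 CPM in the sudemycin-treated U2AF1(WT) mice. In the U2AF1(S34F) mice the same gene was at 2.27, 5.88, 1.05, 0.248 and 2.43 CPM under vehicle and at 0.488, 0.306, 0.163, 0.377 and 0 CPM under sudemycin D6. All but 1 of the sudemycin-treated mice were below every vehicle-treated mouse except mouse 7 of the U2AF1(S34F) group, and the exception, mouse 10 of the U2AF1(WT) group, lay at 2.07 CPM, among the vehicle values. Over both genotypes Rag1 fell by 2.78 ± 0.57 on the log2 scale (SE), 6.85-fold lower (FDR = 0.00402, edgeR), and by 3.52 without mouse 10 of the sudemycin-treated U2AF1(WT) group (FDR = 0.000183). Within U2AF1(WT) mice the difference was −2.60 ± 0.75 and did not pass in edgeR (FDR = 0.132), whereas DESeq2 called it (−2.70, FDR = 0.0444). Without mouse 10 it was −4.24 (FDR = 0.000227, edgeR). Within U2AF1(S34F) mice it was −2.98 ± 0.78 (FDR = 0.0514), and −2.33 without mouse 3 under vehicle (FDR = 0.1004). Rag1 lies inside a longer gene of the same strand, B230118H07Rik, which had 7865 counts over all mice, and how reads were split between them is not given in the sources used here.

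Rag2 (ENSMUSG00000032864, mm9 chr2:101464875-101472685, plus strand), the partner that Rag1 needs to cut DNA, was the least abundant member. Rag2 was at 0.707, 0.126, 0.356, 0.747 and 0.800 CPM in the vehicle-treated and at 0.113, 0, 0.112, 0.531 and 0.129 CPM in the sudemycin-treated U2AF1(WT) mice. With U2AF1(S34F), Rag2 levels were 0.493, 0.605, 0.351, 0.177 and 0.735 CPM under vehicle and 0.244, 0.249, 0.109, 0.358 and 0.119 CPM under sudemycin D6. These are 0 to 43 counts per mouse, and the treated and vehicle ranges overlapped in both genotypes. The fold was 2.31 lower over both genotypes (log2 −1.21 ± 0.38, FDR = 0.0465). Neither genotype passed alone (−1.43 ± 0.63, FDR = 0.342 in U2AF1(WT), and −1.01 ± 0.38, FDR = 0.133 in U2AF1(S34F)). B230118H07Rik also overlaps Rag2, on the opposite strand, and whether counting used the strand is not given in the sources used here.

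Dntt (ENSMUSG00000025014, mm9 chr19:41103765-41134013, plus strand), the terminal transferase expressed from lymphoid progenitors to pro-B cells, had the smallest SE of the 6 members called over both genotypes. Dntt was at 11.7, 7.20, 9.42, 6.70 and 8.88 CPM in the vehicle-treated and at 3.37, 1.95, 1.55, 5.35 and 1.89 CPM in the sudemycin-treated U2AF1(WT) mice. Levels in the U2AF1(S34F) mice were 10.6, 25.7, 7.38, 4.19 and 10.3 CPM under vehicle and 4.13, 3.46, 3.15, 6.33 and 1.91 CPM under sudemycin D6. In U2AF1(WT) mice the groups did not overlap, and in U2AF1(S34F) mice they overlapped because mouse 7 under vehicle (4.19 CPM) lay below mouse 10 under the drug (6.33 CPM). Dntt fell 3.11-fold in U2AF1(WT) mice (log2 −1.64 ± 0.31, FDR = 0.0203), 3.05-fold in U2AF1(S34F) mice (−1.61 ± 0.46, FDR = 0.0686) and 3.06-fold over both (−1.61 ± 0.29, FDR = 0.00127).

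Igll1 (ENSMUSG00000075370, mm9 chr16:16860764-16864078, minus strand) encodes lambda 5, the part of the surrogate light chain that stands in for a constant domain. Igll1 was at 2.85, 1.46, 3.32, 2.36 and 2.83 CPM in the vehicle-treated and at 0.169, 0.0629, 0.0674, 1.48 and 0.364 CPM in the sudemycin-treated U2AF1(WT) mice. In the U2AF1(S34F) mice the same gene was at 0.749, 4.07, 0.812, 0.212 and 1.65 CPM under vehicle and at 0.522, 0.383, 0.181, 0.396 and 0.119 CPM under sudemycin D6. In the sudemycin-treated U2AF1(WT) group 3 mice had 9 counts or fewer, while mouse 10 of that group, at 1.48 CPM, lay just above the lowest vehicle-treated mouse. Igll1 was 4.85-fold lower over both genotypes (log2 −2.28 ± 0.49, FDR = 0.00546), 5.51-fold lower in U2AF1(WT) (−2.46 ± 0.66, FDR = 0.0982) and 4.29-fold lower in U2AF1(S34F) mice (−2.10 ± 0.65, FDR = 0.0822). The log2 difference in U2AF1(WT) mice was −3.66 (FDR = 0.00220) without mouse 10 under the drug, and that in U2AF1(S34F) mice was −1.32 (FDR = 0.164) without mouse 3 under vehicle.

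Vpreb1 (ENSMUSG00000059305, mm9 chr16:16868495-16870936, minus strand) encodes the variable-like part of the same surrogate light chain. Vpreb1 was at 1.80, 0.324, 1.83, 1.16 and 1.47 CPM in the vehicle-treated and at 0.245, 0.105, 0.0449, 0.623 and 0.214 CPM in the sudemycin-treated U2AF1(WT) mice. With U2AF1(S34F), Vpreb1 levels were 0.493, 1.70, 0.314, 0.159 and 0.630 CPM under vehicle and 0.383, 0.191, 0.199, 0.302 and 0.0595 CPM under sudemycin D6. All but 1 of the sudemycin-treated U2AF1(WT) mice lay below all their vehicle controls, and mouse 10 lay above vehicle-treated mouse 2. Vpreb1 was 3.52-fold lower over both genotypes (log2 −1.82 ± 0.42, FDR = 0.00749) and 4.70-fold lower in U2AF1(WT) mice (−2.23 ± 0.55, FDR = 0.0600). In U2AF1(S34F) mice the difference, −1.40 ± 0.55, did not pass (FDR = 0.155). The coding sequence of Vpreb1 is 97.9% identical to that of Vpreb2 (420 of 429 bases), so reads of the 2 genes may have been divided between them. Top3b, with 91194 counts over all mice, overlaps Vpreb1 on the opposite strand, and whether counting used the strand is not given.

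Vpreb3 (ENSMUSG00000000903, mm9 chr10:75405802-75412402, plus strand) encodes a related protein that assembles with nascent immunoglobulin chains, and it is also expressed beyond the pre-B stage. Vpreb3 was at 1.78, 1.21, 2.02, 1.93 and 1.79 CPM in the vehicle-treated and at 1.47, 0.398, 0.629, 1.47 and 1.86 CPM in the sudemycin-treated U2AF1(WT) mice. Levels in the U2AF1(S34F) mice were 0.966, 2.08, 0.868, 0.177 and 0.980 CPM under vehicle and 0.296, 0.440, 0.381, 0.452 and 0.377 CPM under sudemycin D6. Its drug difference was the smallest of the 6 that passed, 1.88-fold lower over both genotypes (log2 −0.91 ± 0.30, FDR = 0.0544), and it was lost without mouse 3 of the vehicle-treated U2AF1(S34F) group (−0.70, FDR = 0.111). In U2AF1(WT) mice it was −0.58 ± 0.36 (FDR = 0.525), and in U2AF1(S34F) mice −1.31 ± 0.43 (FDR = 0.0982).

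The other 4 members did not pass the test of the drug over both genotypes. They were Il7r (ENSMUSG00000003882, mm9 chr15:9435916-9459631, minus strand), Ebf1 (ENSMUSG00000057098, mm9 chr11:44430819-44821593, plus strand), Pax5 (ENSMUSG00000014030, mm9 chr4:44544017-44724318, minus strand) and Cd24a (ENSMUSG00000047139, mm9 chr10:43298975-43304068, plus strand). Il7r, the interleukin-7 receptor alpha chain that T cells and early lymphoid progenitors also carry, averaged 5.70 ± 1.53 CPM and 6.00 ± 3.76 CPM in vehicle- and sudemycin-treated U2AF1(WT) mice, and 5.95 ± 3.68 CPM and 4.01 ± 1.14 CPM in the U2AF1(S34F) mice (SD, n = 5). Its log2 difference was −0.24 ± 0.30 (FDR = 0.659). For Ebf1 the difference was −0.47 ± 0.36 (FDR = 0.451), for Pax5 −0.39 ± 0.43 (FDR = 0.614) and for Cd24a 0.00 ± 0.08 (FDR = 0.989). The errors of Ebf1 and Pax5 were larger than that of Dntt (0.29), and that of Il7r (0.30) was close to it. Differences of the sizes given here were not detectable with these mice.

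Ebf1 was at 13.8, 4.43, 16.8, 14.8 and 15.4 CPM in the vehicle-treated and at 11.6, 3.10, 2.49, 14.9 and 15.4 CPM in the sudemycin-treated U2AF1(WT) mice. In the U2AF1(S34F) mice the same gene was at 6.25, 14.6, 4.28, 1.73 and 5.29 CPM under vehicle and at 5.03, 5.85, 3.32, 5.01 and 3.57 CPM under sudemycin D6. Pax5 was at 9.34, 3.01, 9.47, 10.7 and 8.67 CPM in the vehicle-treated and at 9.15, 2.33, 1.12, 11.4 and 13.7 CPM in the sudemycin-treated U2AF1(WT) mice, and in the U2AF1(S34F) mice at 5.07, 9.26, 2.36, 0.531 and 2.40 CPM under vehicle and 2.91, 2.18, 2.25, 3.13 and 1.73 CPM under sudemycin D6. Both factors were low in the same mice, namely mouse 2 of the vehicle-treated and mice 8 and 9 of the sudemycin-treated U2AF1(WT) group, and mouse 7 of the vehicle-treated U2AF1(S34F) group.

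Within a genotype fewer members passed. In U2AF1(WT) mice 3 of 10 were lower after the drug (Dntt, Vpreb1 and Igll1), where 1.89% of 14763 genes were called lower, 1.18% higher and 3.07% in either direction. That number was 1 without any one of vehicle-treated mice 1, 3 and 5 or sudemycin-treated mice 6, 8 and 12, and Dntt passed each time. It was 5 without both mice that stood apart, with Rag1 (−4.25, FDR = 0.00047) and Rag2 (−2.43, FDR = 0.0407) added. In U2AF1(S34F) mice 4 of 10 were lower (Rag1, Dntt, Igll1 and Vpreb3), where 5.85% of 14714 genes were called lower, 4.94% higher and 10.8% in either direction. This count ranged from 0, without vehicle-treated mouse 3 or sudemycin-treated mouse 9, to 6 without vehicle-treated mouse 7. It was 1 without vehicle-treated mouse 1 or 11 or without sudemycin-treated mouse 2, 6 or 12, and 2 without sudemycin-treated mouse 10.

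Whether the drug acted differently in the genotypes was tested by the interaction of genotype and drug over all mice. Of the 10 members, 0 passed in edgeR, 0 had an unadjusted p under 0.05 and 0 passed in DESeq2, and the smallest adjusted p in edgeR was 0.828. Over all 15392 genes 0.0130% were called. The estimates had wide errors, from −0.74 ± 0.56 for Vpreb3 to 0.83 ± 0.87 for Vpreb1 on the log2 scale (SE), so a difference in the drug response of these sizes was not detectable.

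Between genotypes Ebf1, Pax5 and Vpreb3 were lower in U2AF1(S34F) mice, and Vpreb3 was also among the members called for the drug. Over both treatments 3 of 10 were lower (Vpreb3, Pax5 and Ebf1) and Cd24a was higher, where 27.4% of all genes were called lower, 26.3% higher and 53.7% in either direction, and the members' shares were close to or under these. The median log2 fold change was −0.59 over the members and −0.01 over all genes. The genotype and drug tests used the same 20 mice.

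**Figure D3:**
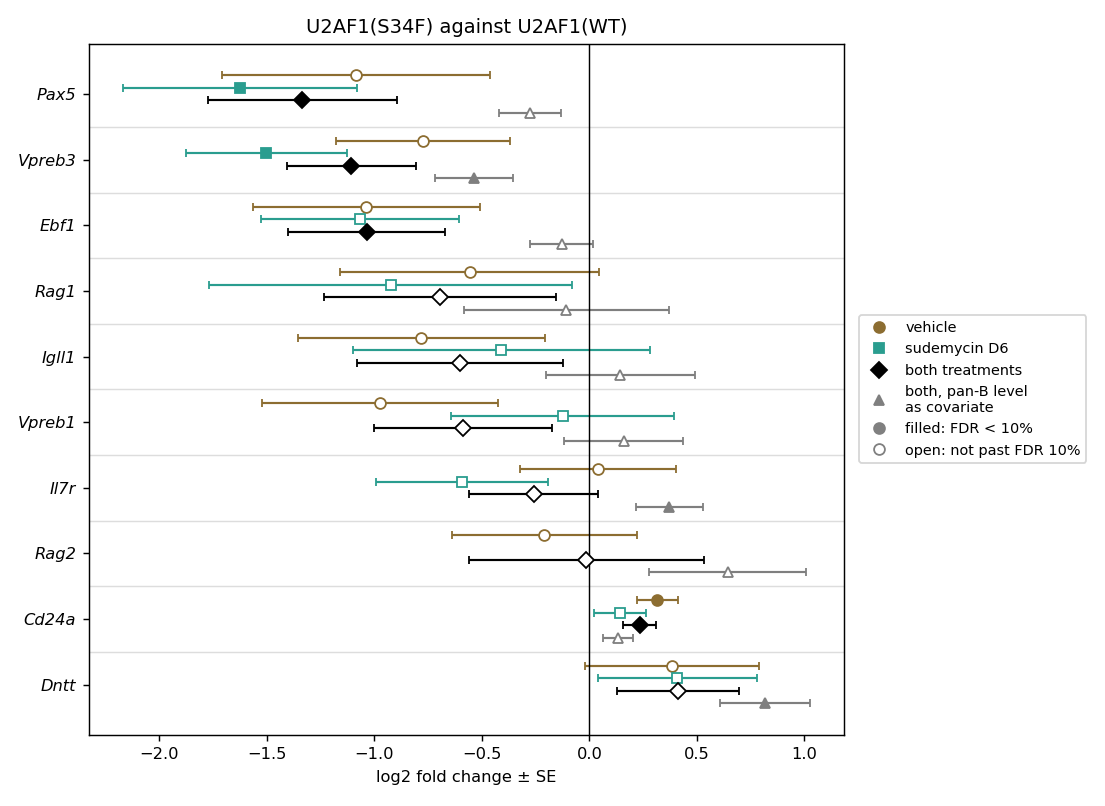
Log2 fold change of each member in U2AF1(S34F) against U2AF1(WT) mice, under vehicle, under sudemycin D6 and over both treatments. A further series over both treatments has the summed level of Cd79a and Cd79b as a covariate, a fit chosen after seeing the data. Bars through the points are ± 1 SE of the edgeR fit and filled points passed FDR<10%, and Rag2 has no point under sudemycin D6 because it was too low there to be tested. Vpreb3, Pax5 and Ebf1 lie left of 0 in all 3 fits without the covariate, with −1.11, −1.33 and −1.04 over both treatments. With the covariate they are at −0.54, −0.28 and −0.13.

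Vpreb3 was 2.15-fold lower in U2AF1(S34F) mice over both treatments (log2 −1.11 ± 0.30, FDR = 0.00441), Pax5 2.52-fold lower (−1.33 ± 0.44, FDR = 0.0177) and Ebf1 2.05-fold lower (−1.04 ± 0.37, FDR = 0.0261). Under vehicle none of the 3 passed alone (FDR = 0.164, 0.219 and 0.168). Under sudemycin D6 Vpreb3 (−1.50 ± 0.37, FDR = 0.0113) and Pax5 (−1.62 ± 0.54, FDR = 0.0446) passed, and Ebf1 did not (−1.07 ± 0.46, FDR = 0.105). There 2 of the 9 members tested were lower, where 19.6% of genes were called lower, 17.2% higher and 36.8% in either direction. Pax5 did not pass without mouse 12 of the sudemycin-treated U2AF1(WT) group (−1.30, FDR = 0.103), and Ebf1 passed without mouse 8 (−1.27, FDR = 0.0388) or mouse 9 (−1.29, FDR = 0.0271) of that group.

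Under vehicle 1 of 10 members differed between the genotypes, and it was Cd24a, which was higher, where 19.7% of genes were called higher, 19.8% lower and 39.5% in either direction. Cd24a was at 661, 661, 775, 666 and 735 CPM in the vehicle-treated and at 699, 840, 910, 590 and 695 CPM in the sudemycin-treated U2AF1(WT) mice. With U2AF1(S34F), Cd24a levels were 866, 795, 805, 1020 and 898 CPM under vehicle and 799, 802, 900, 702 and 919 CPM under sudemycin D6. The vehicle-treated groups did not overlap, and Cd24a was 1.24-fold higher in U2AF1(S34F) mice (log2 0.31 ± 0.09, FDR = 0.0231). From reads across splice junctions alone the same difference was 0.16 (FDR = 0.168), and over both treatments it was −0.01 (FDR = 0.977) in place of 0.23 ± 0.08 (FDR = 0.0176). Without vehicle-treated U2AF1(S34F) mouse 3, which had the highest level of 8 members in its group, 6 members were called, with Vpreb1 (−1.63), Igll1 (−1.54), Ebf1 (−1.56), Pax5 (−1.66) and Vpreb3 (−1.18) lower. Without mouse 2 of the vehicle-treated U2AF1(WT) group 3 members were called, with Ebf1 (−1.24) and Vpreb1 (−1.20) added.

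The recombinase and surrogate light chain genes did not pass between genotypes. Over both treatments the log2 differences were −0.69 ± 0.54 for Rag1 (FDR = 0.306), −0.60 ± 0.48 for Igll1 (FDR = 0.317), −0.59 ± 0.41 for Vpreb1 (FDR = 0.257), −0.01 ± 0.55 for Rag2 (FDR = 0.986) and 0.41 ± 0.28 for Dntt (FDR = 0.246). Without mouse 3 of the vehicle-treated U2AF1(S34F) group Vpreb1 (−0.90, FDR = 0.0844) and Igll1 (−0.99, FDR = 0.0912) passed as lower, and without mouse 10 of the sudemycin-treated U2AF1(WT) group Dntt (0.57, FDR = 0.0983) passed as higher. Dntt alone of these had a higher mean in U2AF1(S34F) mice under both treatments, 11.6 ± 8.29 against 8.78 ± 1.99 CPM under vehicle and 3.80 ± 1.63 against 2.82 ± 1.58 CPM under sudemycin D6 (SD, n = 5).

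Set against vehicle-treated U2AF1(WT) mice, the sudemycin-treated U2AF1(S34F) mice differed in every member, with 9 lower and Cd24a higher, where 25.1% of genes were called lower, 25.1% higher and 50.2% in either direction. Rag1 was 11.4-fold lower (log2 −3.51 ± 0.49, FDR = 0.000258), Igll1 7.22-fold (−2.85 ± 0.33, FDR = 3.88e-05), Vpreb1 5.05-fold (−2.34 ± 0.44, FDR = 0.00117) and Vpreb3 4.17-fold lower (−2.06 ± 0.21, FDR = 1.29e-05). Pax5 was 3.34-fold, Ebf1 2.85-fold, Dntt and Rag2 2.30-fold and Il7r 1.42-fold lower. The groups did not overlap for Vpreb3, Igll1, Rag1 and Dntt, and the share of all genes without overlap is not given here. Il7r and Cd24a were the least secure: Il7r (FDR = 0.0736) was lost without any of vehicle-treated mice 1, 3 and 5 or sudemycin-treated mice 9, 10 and 12, and Cd24a (0.24 ± 0.09, FDR = 0.0455) without vehicle-treated mouse 1 or sudemycin-treated mouse 9 or 12. This comparison combines the genotype, its donor pools, the drug and the sex-linked difference.

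The members were next set beside the amount of B-lineage RNA in the same library. The summed CPM of Cd79a and Cd79b, the signalling components of the B cell receptor that B cells keep from the pro-B stage on, was 42.1 ± 14.1 in vehicle-treated and 41.2 ± 23.1 after sudemycin D6 in U2AF1(WT) mice (SD, n = 5). It was 30.0 ± 20.9 and 19.4 ± 2.62 in the corresponding U2AF1(S34F) groups. Cd79a (log2 −0.25 ± 0.37) and Cd79b (−0.35 ± 0.31) did not pass the drug test over both genotypes (FDR = 0.722 and 0.512). The sum ranged from 14.2 to 60.4 CPM among the sudemycin-treated U2AF1(WT) mice alone.

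As a description, the log2 ratio of Rag1 to this sum averaged −3.56 ± 0.90 in vehicle-treated and −6.81 ± 1.32 in sudemycin-treated mice with U2AF1(WT), and −3.93 ± 0.71 and −6.30 ± 1.38 in the U2AF1(S34F) mice (SD, n = 5, with 0.05 CPM added to each level). The ratio of Igll1 differed by −2.96 in U2AF1(WT) and −1.28 in U2AF1(S34F) mice, that of Vpreb1 by −2.13 and −0.77, that of Dntt by −1.55 and −1.09 and that of Rag2 by −1.42 and −0.59. For Vpreb3 the differences were −0.55 and −0.62. Pax5 (−0.34 and 0.17) and Il7r (0.04 and −0.04) stayed closer to the B-lineage sum, as did Ebf1 in U2AF1(S34F) mice (0.15). In U2AF1(WT) mice Ebf1 differed by −0.50, near the −0.55 of Vpreb3.

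**Figure D4:**
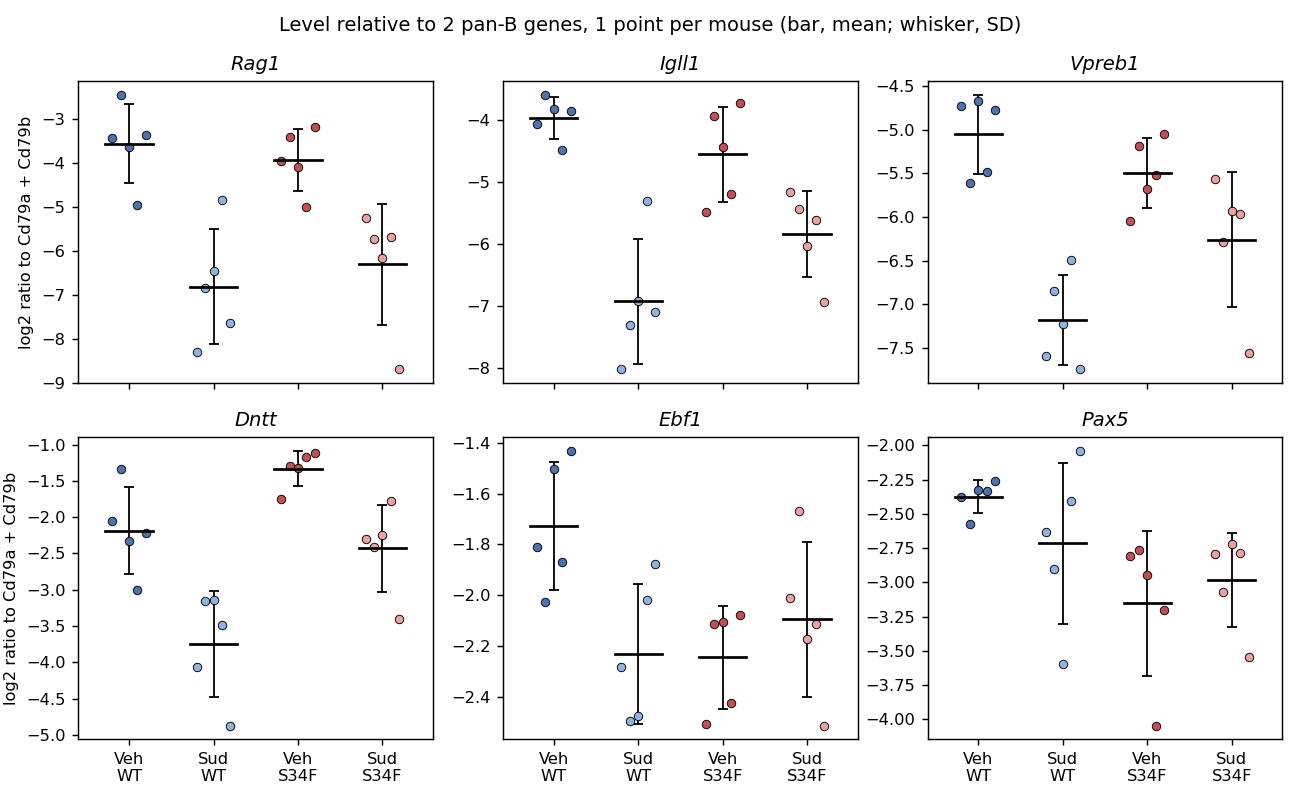
Log2 ratio of the CPM of 6 members to the summed CPM of Cd79a and Cd79b in the same mouse, for the 4 groups of 5 mice. Points are mice, horizontal bars group means and whiskers 1 SD. Ratios of Rag1 average −3.56 and −6.81 in vehicle- and sudemycin-treated U2AF1(WT) mice, and those of Pax5 average −2.37 and −2.72.

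With the log2 of this sum as a covariate, a fit chosen after seeing the data and in which the sum is itself an outcome, the same 6 members were lower after the drug. Rag1 differed by −2.55 ± 0.46 (FDR = 0.00148), Igll1 by −1.98 ± 0.35 (FDR = 0.000965), Vpreb1 by −1.44 ± 0.30 (FDR = 0.00258), Dntt by −1.38 ± 0.20 (FDR = 0.000138), Rag2 by −1.02 ± 0.32 (FDR = 0.0407) and Vpreb3 by −0.66 ± 0.17 (FDR = 0.0126). In the genotype comparison the covariate left Pax5 at −0.28 ± 0.14 (FDR = 0.126), Ebf1 at −0.13 ± 0.15 (FDR = 0.501) and Cd24a at 0.13 ± 0.07 (FDR = 0.117), none of which passed. Vpreb3 was still lower (−0.54 ± 0.18, FDR = 0.0188), and Dntt (0.82 ± 0.21, FDR = 0.00324) and Il7r (0.37 ± 0.16, FDR = 0.0571) were higher in U2AF1(S34F) mice. For the interaction of genotype and drug with this covariate 0 of 10 members passed. Unadjusted p in edgeR was under 0.05 for Vpreb1 (1.52 ± 0.48, FDR = 0.199), Ebf1 (0.67 ± 0.21, FDR = 0.183), Igll1 (1.38 ± 0.63, FDR = 0.405) and Pax5 (0.50 ± 0.23, FDR = 0.399).

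Within groups, 9 of the members went up and down together from mouse to mouse. The Pearson correlation of each member's deviation from its group mean with the mean standardised deviation of all members, over 20 mice, was 0.946 for Vpreb1, 0.943 for Il7r, 0.941 for Igll1, 0.936 for Ebf1, 0.905 for Pax5, 0.875 for Dntt, 0.864 for Vpreb3, 0.839 for Rag1 and 0.791 for Rag2. For Cd24a it was −0.681. Each member is part of the mean it was compared with, and all genes of a mouse share its library, so these values describe the mice and carry no test.

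**Figure D5:**
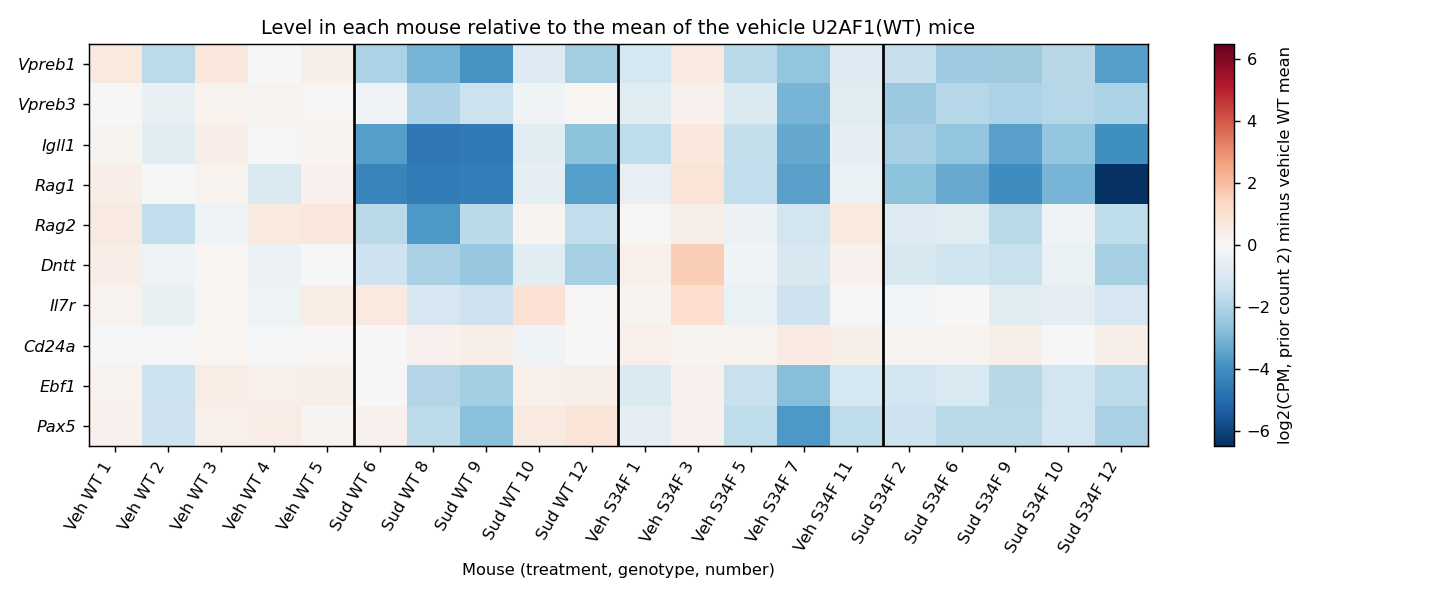
Level of each member in each mouse minus the mean of the vehicle-treated U2AF1(WT) mice, in log2 CPM, with mice as columns and genes as rows. Colours run from below to above that mean, so they hold drug and genotype differences as well as differences between mice of a group. In the vehicle-treated U2AF1(S34F) group, mouse 7 lay below that mean in every member except Cd24a. Mouse 3 of that group lay above it in members such as Vpreb1, Vpreb3, Igll1, Rag1, Dntt, Il7r and Cd24a.

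The 10 other genes whose deviations were most like those of the members were Aff3 (r = 0.933), Cplx2 (0.926), Dpp4 (0.926), Blnk (0.923), Zdhhc8 (0.922), Cd72 (0.918), Chst3 (0.916), Cnn3 (0.913), Inpp4b (0.912) and Lass4 (0.912), again over 20 mice. Blnk is the adaptor of the pre-B cell receptor and Cd72 a B cell surface protein.

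The other genes of early B cells were counted by lists. Of the pre-B cell receptor and its signalling proteins, 9 genes were tested and 0 passed the drug test over both genotypes in either direction in edgeR, with 1 at an unadjusted p under 0.05 and 0 called in DESeq2. Ighm, the heavy chain that pre-B cells and later B and plasma cells share, differed by −0.39 ± 0.26 (FDR = 0.363) over both genotypes and by −0.83 ± 0.23 (FDR = 0.0572) in U2AF1(S34F) mice. The kinases and adaptors Blk (−0.52 ± 0.40, FDR = 0.461), Blnk (−0.48 ± 0.32, FDR = 0.372), Lyn (0.12 ± 0.06, FDR = 0.199) and Btk (0.04 ± 0.05, FDR = 0.626) did not pass, and Lyn, Btk and Plcg2 are also expressed in myeloid cells. In the genotype comparison 4 of the 9 were lower, namely Cd79a (−1.38 ± 0.37), Blk (−1.10 ± 0.41), Blnk (−0.86 ± 0.32) and Bcl6 (−0.27 ± 0.09), with FDR between 0.00536 and 0.0326. The median log2 difference of the list was −0.25 for the drug and −0.27 for the genotype.

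Of 8 further early B cell genes, 1 was lower after the drug and 1 higher in edgeR, and 3 were lower and 1 higher in DESeq2. Arpp21, a phosphoprotein gene expressed in pro-B and pre-B cells, averaged 1.37 ± 0.29 CPM in vehicle-treated and 0.373 ± 0.302 CPM in sudemycin-treated U2AF1(WT) mice (SD, n = 5) and fell by 1.53 ± 0.36 on the log2 scale over both genotypes (FDR = 0.00863). Bst1, a surface enzyme of stromal, myeloid and pre-B cells, rose by 0.54 ± 0.08 (FDR = 7.69e-05). Between genotypes Il2ra (−1.13 ± 0.24), Enpep (−1.20 ± 0.37) and Cd72 (−0.59 ± 0.25) were lower and Cd93 (0.31 ± 0.09) and Erg (0.29 ± 0.13) higher.

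Of 18 other transcription factors of the B lineage, 1 was lower after the drug and 0 were higher, and it was Myb (−0.24 ± 0.06, FDR = 0.0206), which blood progenitors share. Between genotypes 13 were lower and 1 higher, beside 27.4% and 26.3% of all genes. Lef1 (−1.47 ± 0.25), Foxo1 (−1.10 ± 0.19), an activator of the Rag genes, Tcf3 (−0.33 ± 0.07), which encodes the E proteins of the E-box, and Ikzf3 (−0.93 ± 0.23) were lower, and Myb (0.19 ± 0.06) was higher.

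Of 15 genes of the interleukin-7 pathway, 2 were higher and 2 lower after the drug: Jak3 (0.44 ± 0.09, FDR = 0.00417) and Ccnd3 (0.27 ± 0.09, FDR = 0.0587) rose, and Mycn (−0.97 ± 0.27, FDR = 0.0253) and Mcl1 (−0.18 ± 0.07, FDR = 0.0788) fell. Between genotypes 10 were lower and 0 higher, led by Pim1 (−1.22 ± 0.10), Cish (−1.60 ± 0.14), both targets of Stat5, Il2rg (−0.81 ± 0.07), the common gamma chain that pairs with Il7r, and Mcl1 (−0.54 ± 0.07). These genes are expressed in myeloid cells too.

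Genes of the DNA repair side of V(D)J recombination were also counted. Of 12 genes of recombination and end joining 0 passed the drug test in edgeR in either direction, with 2 at an unadjusted p under 0.05 and 1 called higher in DESeq2, and the median log2 difference was −0.01. Between genotypes 4 were higher, among them Hmgb1 (0.45 ± 0.06) and Xrcc4 (0.29 ± 0.06), and 2 were lower, Polm (−0.58 ± 0.09) and Dclre1c (−0.32 ± 0.07).

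Markers of other cells were followed beside the drug result. Of 9 mature B cell genes 0 passed the drug test in edgeR or DESeq2 and 0 had an unadjusted p under 0.05, with a median of −0.31, and their summed CPM ran from 31.4 to 134 in vehicle-treated and from 19.3 to 184 in sudemycin-treated mice with U2AF1(WT), and from 13.7 to 166 and 35.9 to 52.5 in the U2AF1(S34F) groups. Stem and progenitor genes moved with the members: 5 of 6 were lower after the drug, among them Flt3 (−0.58 ± 0.10, FDR = 0.000476), a receptor of lymphoid-primed progenitors, Kit (−0.49 ± 0.13, FDR = 0.0207) and Mecom (−0.68 ± 0.15, FDR = 0.00714). Their summed CPM ran from 95.7 to 146 and from 60.5 to 125 in the vehicle and drug groups of U2AF1(WT) mice, and from 124 to 163 and from 87.2 to 117 in U2AF1(S34F) mice. Of 3 plasmacytoid dendritic cell genes 1 was lower in edgeR, Siglech (−1.32 ± 0.29, FDR = 0.0055), and 2 were lower in DESeq2. This lineage can also express Dntt and the Rag genes. Its 3 genes summed to 8.66 to 24.4 and 4.20 to 11.2 CPM in vehicle- and sudemycin-treated U2AF1(WT) mice and to 4.51 to 16.5 and 3.29 to 7.20 CPM in U2AF1(S34F) mice. The part of these cells in the members' levels was not tested.

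Among the remaining lists the drug test passed 1 of 6 T cell genes (Cd3d, −0.54 ± 0.15), 2 of 5 megakaryocyte genes (Itga2b, −0.54 ± 0.12, and Pf4, −0.74 ± 0.23), all lower, and 1 of 5 neutrophil primary granule genes (Prtn3, 0.38 ± 0.10), higher. It passed 0 of 5 plasma cell, 8 cell cycle, 8 erythroid, 7 late neutrophil, 7 monocyte and macrophage, 4 NK cell and 7 stromal genes in edgeR, of which 1 plasma cell, 1 cell cycle and 1 NK cell gene had an unadjusted p under 0.05, and in DESeq2 1 of these genes, of the NK cell list, was called. Between genotypes the 8 cell cycle genes were all higher, and 4 of 6 T cell, 2 of 3 plasmacytoid dendritic cell and 3 of 9 mature B cell genes were lower, where 26.3% of all genes were called higher and 27.4% lower. DESeq2 called 5 of the 9 mature B cell genes lower. No list had a gene at 3 counts or fewer in all mice.

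Splicing of the members was read from junction counts, since the factor carrying S34F and the target of the drug both act at the 3′ ends of introns. The 3′ splice sites of the alternative exons with enough reads follow 1 pair of Vpreb3 sites, each as 20 intronic and 3 exonic bases of mm9, 5′ to 3′ on the strand of the gene, with the last 3 intronic bases in capitals. Positions are chr10:75411868-75411890 and chr10:75411907-75411929 for the annotated and unannotated sites of Vpreb3, chr19:41133037-41133059 for Dntt, and chr4:44710557-44710579, chr4:44704902-44704924 and chr4:44692438-44692460 for the Pax5 exons of 166, 198 and 129 bp.
Vpreb3 annotated: tgggtctgtgtctttttCAGtct
Vpreb3 unannotated: ccagcctgacgcgttctCAGtct
Dntt cassette exon of 60 bp: cacgtgtcatttgctaaCAGggg
Pax5 cassette exon of 166 bp: ttgtttctgatctgtttCAGgac
Pax5 cassette exon of 198 bp: tcctctcctcttgggtcTAGgta
Pax5 cassette exon of 129 bp: gcacccctctccttctaCAGtgt
The base before the AG was C at all but the Pax5 exon of 198 bp, where it was T.

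Over 5 comparisons 0 of 4 or 5 cassette exon events of Dntt and Pax5 passed (limma on inclusion levels, FDR<10% and a difference above 1%), 0 had an unadjusted p under 0.05 and 0 passed on the logit scale in 4 of the comparisons. On that scale 2 events of Pax5, of its 129-bp and 166-bp exons, passed between sudemycin-treated U2AF1(S34F) and vehicle-treated U2AF1(WT) mice. That scale adds 0.5 reads, so an event without skipping reads takes a value set by its read depth. Median inclusion of both events was 1.0 in both groups. Reads per mouse were 31 to 59 against 119 to 166 (129 bp) and 14 to 22 against 36 to 123 (166 bp). These 2 calls therefore do not separate inclusion from depth. Of all events tested, 1.71% were called between genotypes under vehicle, 1.54% between genotypes under sudemycin D6, 0% and 0.653% for the drug in U2AF1(WT) and U2AF1(S34F) mice and 5.48% between sudemycin-treated U2AF1(S34F) and vehicle-treated U2AF1(WT) mice. The 60-bp exon of Dntt was included at a level of 0.252 ± 0.146 in vehicle-treated and 0.344 ± 0.389 in sudemycin-treated mice with U2AF1(WT), and at 0.192 ± 0.0757 and 0.160 ± 0.111 in U2AF1(S34F) mice (SD, n = 5), from 6 to 277 reads per mouse. The 166-bp exon of Pax5 has 2 events, which differ in the flanking exon they are joined to. In the event with the more distant flank it was included at 0.753 ± 0.0505, 0.789 ± 0.130, 0.840 ± 0.119 and 0.786 ± 0.0852 in the same order. In the other, the one that passed on the logit scale, inclusion was 1.0 in every vehicle-treated U2AF1(WT) mouse and averaged 0.996 ± 0.00913, 0.962 ± 0.0460 (4 mice with reads) and 0.981 ± 0.0426 in the other groups, in that order. With so few reads a change of inclusion was not detectable unless it was large.

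The unannotated 3′ splice site of Vpreb3 lay 39 bp downstream of the annotated one. Summed over mice it had 82 reads beside 112 at the annotated site in vehicle-treated U2AF1(WT) mice, 47 beside 73 in sudemycin-treated U2AF1(WT) mice, 21 beside 53 in vehicle-treated and 8 beside 24 in sudemycin-treated U2AF1(S34F) mice. The site had 0 reads in 0, 2, 2 and 3 mice of the 4 groups. These sums are a description without a test, and the share of a single mouse ran from 0% to 100%.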

How the data were processed

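Stranded total RNA of 20 mouse marrows, depleted of ribosomal RNA, was sequenced by the authors as paired ends and aligned with TopHat2 2.0.8 to mm9, per the submitters' processing notes. The authors deposited whole-number counts per gene (37620 genes) and per splice junction (554616 junctions), without normalization. The counting program is not given in the sources used here, and columns of other samples numbered 0.

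Symbols came from an Ensembl annotation of mm9, and promoters from RefSeq. Gene lists were matched by symbol: Syk, Ighd and Sox4 had no single entry and were left out, and some fixed list genes are not reported here. The pan-B sum is of Cd79a and Cd79b. Genes were tested in edgeR 4.0.16 (R 4.3.3; filterByExpr, TMM, robust quasi-likelihood fit, prior count of 2) with Benjamini-Hochberg adjustment over all genes tested and FDR<10%. Pairs of groups were fitted on their own 10 mice. The drug, with genotype as covariate, the genotype, with treatment as covariate, and their interaction were fitted on all 20. Junctions with annotated ends gave 8031 cassette exon events. Those with a mean of 10 reads per mouse, and with a value in at least 4 mice of each group, were tested with limma 3.58.1. Levels are TMM-scaled CPM, and ranges of mice cover biological and counting error together. Scripts were tested on simulated data.

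Alternatives were DESeq2 1.42.0 and its size factors, no filter or 1 CPM in 5 mice, autosomal genes, junction counts per gene, one model of all mice, FDR under 5%, a replicate block, a mean of 20 reads or the logit scale for exons, and leaving out each mouse. The pan-B covariate and leaving out both distant mice were chosen after seeing the data. Named genes were the members, the label check genes, the pre-B receptor list, at most 4 called genes per list with the smallest FDR, and the 10 genes most like the members. The members and lists were chosen with earlier results of these data known.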

Additional observations from a re-analysis of the deposited data

Results flagged for a closer look

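In 5 of the 40 sets of 5 mice (10 genes in 4 groups) 1 mouse lay far from the others of its group on the log2 CPM scale, with a gap to its neighbour of over 0.71 of the whole range. Chance gives about 1 such set in 20, and the members rise and fall together, so the sets are not independent. In 4 of the 5 it was mouse 2 of the vehicle-treated U2AF1(WT) group, which was low: Vpreb1 was at 0.324 CPM there, Vpreb3 at 1.21 CPM, Ebf1 at 4.43 CPM and Pax5 at 3.01 CPM. The pan-B genes Cd79a and Cd79b summed to 18.2 CPM in that mouse and to between 41.7 and 54.2 CPM in the other 4 of its group. The remaining set was Rag1 in the sudemycin-treated U2AF1(WT) group, where mouse 10 was high at 2.07 CPM. What set these mice apart was not tested.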

How the results depend on the processing

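Of 721 member fold changes recomputed under alternatives other than leaving out single mice, 640 kept their direction and their side of the threshold, 35 changed sign, 33 lost and 13 gained the call, and 4 of those that changed sign had been called. DESeq2 and its size factors in edgeR moved no count of called members by over 1.5 times. The cause of the changes below was not tested.

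Counts of called members moved as follows. With FDR under 5%, 1 was called for the drug in U2AF1(WT) mice and 0 for the drug in U2AF1(S34F) mice. Without a filter on low counts, 1 was called between genotypes under sudemycin D6 and 0 for the drug in U2AF1(S34F) mice, where 1 CPM in 5 mice gave 1 and one model of all mice 2. From junction counts, for which 7 of 10 members had enough reads over all mice, 2 were called for the drug over both genotypes (Dntt and Igll1), 1 and 0 for the drug in U2AF1(WT) and U2AF1(S34F) mice, 1 between genotypes under sudemycin D6 and 6 between sudemycin-treated U2AF1(S34F) and vehicle-treated U2AF1(WT) mice. Without both distant mice 3 were called between genotypes under vehicle and 5 for the drug in U2AF1(WT) mice. On the logit scale, where values also depend on read depth, 2 member exons were called between sudemycin-treated U2AF1(S34F) and vehicle-treated U2AF1(WT) mice.

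Leaving out 1 mouse at a time gave 1 to 6 called members between genotypes under vehicle, 1 to 3 under sudemycin D6 and 4 to 6 over both treatments. It gave 1 to 4 for the drug in U2AF1(WT) mice, 0 to 6 in U2AF1(S34F) mice and 5 to 6 over both. It gave 8 to 10 between sudemycin-treated U2AF1(S34F) and vehicle-treated U2AF1(WT) mice, 0 to 0 for the interaction and 0 to 0 for exons.

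Replicate numbers were not treated as pairs in the main fits, and same-numbered mice of the 2 genotypes correlated at −0.11 to 0.21. Differently numbered mice were not compared, so these values do not settle whether the numbers mark pairs. With the replicate number as a block, 2 members were called between genotypes under vehicle, 1 under sudemycin D6 and 0 for the drug over both genotypes. Only number 2 occurs under both treatments, in a vehicle-treated U2AF1(WT) and a sudemycin-treated U2AF1(S34F) mouse. The drug difference with this block therefore rests on that pair, which differs in genotype and holds a mouse that stood apart from its group. In that fit Il7r was at 0.68, Pax5 at 1.22, Rag2 at 0.91, Ebf1 at 1.26 and Vpreb1 at 1.07, and Cd24a at 0.059 for the interaction.

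Values that changed sign are log2 differences. From junction counts Il7r was at −0.11 between genotypes under vehicle and −0.18 for the drug in U2AF1(WT) mice. Cd24a was at −0.17 between genotypes under sudemycin D6, −0.014 in sudemycin-treated U2AF1(S34F) against vehicle-treated U2AF1(WT) mice, −0.016 for the drug and −0.0059 for the genotype, and Rag2 was at −0.16 and Ebf1 at 0.052 for the interaction. Without a filter Cd24a was at −0.0032 for the drug and Rag2 at 0.0061 for the genotype, with 1 CPM in 5 mice Cd24a was at −0.0050, and in DESeq2 Rag2 was at 0.0011. With the pan-B covariate Cd24a was at −0.045 and Pax5 at 0.025 for the drug. The genotype values were then 0.37 for Il7r, 0.64 for Rag2, 0.16 for Vpreb1 and 0.14 for Igll1, and the interaction values 0.50 for Pax5, 0.67 for Ebf1 and 0.73 for Rag1. Without both distant mice Il7r was at −0.055 between genotypes under vehicle and −0.36 for the drug in U2AF1(WT) mice. Under sudemycin D6 the genotype difference was 0.47 for Vpreb1, 0.73 for Rag1 and 0.81 for Igll1. Rag2 was at 0.13 for the genotype, and Ebf1 at 0.40 and Rag1 at 1.29 for the interaction.

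Leaving out 1 mouse also turned uncalled values. Between genotypes under vehicle Il7r ran from −0.35 to 0.25 and Dntt from −0.11 to 0.60. Under sudemycin D6 Vpreb1 ran from −0.35 to 0.47, Rag1 from −1.21 to 0.73 and Igll1 from −0.65 to 0.81. For the drug in U2AF1(WT) mice Il7r ran from −0.26 to 0.28, Pax5 from −0.46 to 0.14 and Cd24a from −0.00 to 0.15, and in U2AF1(S34F) mice Ebf1 ran from −0.73 to 0.049. Cd24a ran from −0.041 to 0.035 for the drug over both genotypes and Rag2 from −0.13 to 0.26 for the genotype. For the interaction Pax5 ran from −0.79 to 0.045, Dntt from −0.25 to 0.53, Ebf1 from −0.26 to 0.51 and Rag1 from −0.68 to 1.27.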
